A study of Mus musculus with 4 samples.

Results

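Hi-C, in which neighbouring pieces of chromatin are ligated and read as pairs, was used to compare chromatin loops of mouse uterus without a functional Esr1 gene, which encodes estrogen receptor alpha (ERα), with those of wild-type uterus. The comparison rests on 3 loop lists: 1 from the knockout (genotype Ex3aERKO, vehicle, replicate 1) and 2 from wild-type mice given vehicle (replicates 2 and 3). These mice were C57BL/6J females over 10 weeks old, ovariectomised and rested for 10 to 14 days, and the uterus was frozen 1 h after an intraperitoneal injection of 100 ul saline. A further list, from wild-type uterus 1 h after subcutaneous progesterone (1 mg in 100 ul sesame oil), took no part in choosing loops and served as an additional wild-type library. A loop was matched when another list held a loop whose anchors both overlapped its own after 25 kb was added to each side. By that rule 7603 of 21829 knockout loops had no match in either vehicle list (called knockout-only loops here), and 491 loops shared by the vehicle lists had no knockout match (called knockout-missing loops). Together they are 8094 of the 47601 loops of the 3 lists and of the 59353 of all 4 lists.

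ERα is a hormone-activated transcription factor that binds estrogen response elements, mostly at enhancers away from promoters, and it drives growth and secretion in the uterine epithelium and stroma. Most strong Hi-C loops in mammalian cells join sites bound by CTCF, where the cohesin ring stops as it extrudes DNA. Others join active promoters to enhancers or to one another. ERα-null mice have a small uterus that does not grow in response to estradiol.

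There is 1 knockout library, so no test of genotype was possible, and all comparisons are read against the difference between the vehicle replicates. The labels do not say whether a library came from 1 animal or a pool, nor give the altered allele beyond its name. The lists give positions only, so depth is unknown, and a loop that a list lacks may still exist in that tissue. Neither tissue identity nor the loss of ERα can be checked from positions. In whole tissue, fewer cells of a type and a weaker loop per cell cannot be told apart. Intervals are exact (Clopper-Pearson) 95% intervals for counting error only, and neighbouring loops are not independent.

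The promoters printed here belong to genes with several loops of either class, except Meis1, whose loops were of neither class. Each is 300 bases, 250 before and 50 after the start site, from RefSeq on GRCm38.p6, written 5′ to 3′ on the gene's strand with CpG dinucleotides in capitals. The first 3 lie at anchors of knockout-only loops, and the start sites of Clcn4 and Meis1 had loops in the vehicle lists and none in the knockout.
Fbxo5, chr10:5805416-5805715, minus strand: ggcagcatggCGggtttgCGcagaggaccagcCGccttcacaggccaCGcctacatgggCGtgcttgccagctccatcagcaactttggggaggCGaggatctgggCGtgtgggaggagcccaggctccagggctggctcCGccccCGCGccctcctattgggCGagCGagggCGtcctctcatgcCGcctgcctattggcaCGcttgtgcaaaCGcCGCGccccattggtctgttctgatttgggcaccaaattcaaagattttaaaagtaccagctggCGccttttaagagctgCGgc
Eml6, chr11:30025984-30026283, minus strand: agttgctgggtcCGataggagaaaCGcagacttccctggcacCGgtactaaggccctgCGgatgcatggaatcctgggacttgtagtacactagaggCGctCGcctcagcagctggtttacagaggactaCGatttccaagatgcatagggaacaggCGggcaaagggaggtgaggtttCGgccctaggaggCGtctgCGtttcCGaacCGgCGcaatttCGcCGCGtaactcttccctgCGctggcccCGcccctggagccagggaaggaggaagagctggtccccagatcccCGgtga
Zfp143, chr7:110061452-110061751, plus strand: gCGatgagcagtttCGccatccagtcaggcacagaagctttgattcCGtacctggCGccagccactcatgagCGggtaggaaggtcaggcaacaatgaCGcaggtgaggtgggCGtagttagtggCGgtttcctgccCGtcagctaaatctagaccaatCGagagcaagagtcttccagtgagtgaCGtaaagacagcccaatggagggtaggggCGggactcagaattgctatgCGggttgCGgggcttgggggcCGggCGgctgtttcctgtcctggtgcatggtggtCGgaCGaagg
Clcn4, chr7:7299508-7299807, minus strand: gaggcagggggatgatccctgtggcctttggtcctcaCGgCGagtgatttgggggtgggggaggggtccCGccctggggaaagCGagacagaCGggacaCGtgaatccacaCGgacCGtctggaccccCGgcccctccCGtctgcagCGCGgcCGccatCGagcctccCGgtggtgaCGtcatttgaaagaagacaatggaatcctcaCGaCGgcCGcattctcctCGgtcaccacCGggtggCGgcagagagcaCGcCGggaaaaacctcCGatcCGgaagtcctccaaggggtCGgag
Meis1, chr11:19018920-19019219, minus strand: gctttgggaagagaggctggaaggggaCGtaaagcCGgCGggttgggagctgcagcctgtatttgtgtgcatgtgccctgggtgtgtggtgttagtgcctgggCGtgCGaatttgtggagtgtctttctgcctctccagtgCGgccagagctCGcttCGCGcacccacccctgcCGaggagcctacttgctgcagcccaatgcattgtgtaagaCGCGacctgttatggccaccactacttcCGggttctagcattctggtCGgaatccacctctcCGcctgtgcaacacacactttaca

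These promoters hold 20 CpG dinucleotides for Fbxo5, 20 for Eml6, 18 for Zfp143, 27 for Clcn4 and 15 for Meis1. The Fbxo5 start site lay at the anchors of 8 knockout loops and of 0 loops in each vehicle list. The Eml6 start site had 7 knockout loops and none in either vehicle list, and that of Zfp143 had 5 and none. Loops at the Clcn4 start site numbered 5 in vehicle replicate 2, 3 in vehicle replicate 3 and 0 in the knockout. At that of Meis1 they numbered 4, 4 and 0. By the criterion given next all but the Meis1 promoter were CpG-rich. Of all 21044 protein-coding promoters in the table, 45.4% were CpG-rich (an observed over expected CpG ratio above 0.6 and over 50% G and C). At anchors of knockout-only loops the share was 73.0% (71.8 to 74.3) of 4935 promoters, at knockout-missing loops 54.1% (47.6 to 60.5) of 242, and at vehicle replicate 2 loops not in replicate 3, the baseline, 68.5% (67.1 to 70) of 4023.

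The palindromic estrogen response element GGTCANNNTGACC was found in 11 of all promoters (0.0523%), in 0 of the 4935 at knockout-only loops and in 0 of the 242 at knockout-missing loops. A half-site (GGTCA on either strand, which reads TGACC on the other) was in 39.5% of all promoters, in 37.1% (35.8 to 38.5) at knockout-only and in 37.2% (31.1 to 43.6) at knockout-missing loops. The CTCF core motif, on either strand, was in 0.565% of all promoters, 0.851% (0.614 to 1.15) at knockout-only and 0.826% (0.100 to 2.95) at knockout-missing loops. At baseline loops the palindromic element was in 2 of 4023 promoters. A half-site was there in 36.1% (34.6 to 37.6) and the CTCF core motif in 0.895% (0.628 to 1.24). The full estrogen response element contains a half-site on each strand. These letters were searched only in the 300 bases around start sites, and the rest of each anchor was not read.

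The knockout list was the longest and held most wild-type loops. Knockout-only loops were 34.8% (34.2 to 35.5) of the knockout list. As the baseline, 46.0% (45.2 to 46.8) of the 16387 vehicle replicate 2 loops were not in vehicle replicate 3, and 9.07% (8.49 to 9.67) of the 9385 replicate 3 loops were not in replicate 2. Of the 8851 replicate 2 loops that were also in replicate 3, 5.55% (5.08 to 6.04) were not in the knockout list. With each vehicle list as the odd one out, replicate 2 had 2612 loops in neither other list (15.9% of its list), and replicate 3 had 386 (4.11%). In reverse, 465 of the 8566 replicate 3 loops shared with the knockout were not in replicate 2 (5.43%, 4.96 to 5.93), and 4924 of the 13284 replicate 2 loops shared with the knockout were not in replicate 3 (37.1%). The share of common loops not called in the knockout was thus within the interval of that for vehicle replicate 2, a wild-type library. Without vehicle replicate 2 the knockout loops in no vehicle list numbered 12717 (58.3% of the list), and without replicate 3 they were 8198 (37.6%). The knockout-missing count was 819 without replicate 2 and 3103 without replicate 3, so it depends on which vehicle list it is drawn from.

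The classes differed in how many of their loops were called after progesterone. The progesterone list held 9.40% (8.76 to 10.1) of the knockout-only loops, 42.2% (41.0 to 43.5) of knockout loops in 1 vehicle list and 89.7% (89.0 to 90.3) of those in both. It held 18.8% (17.4 to 20.4) of the loops called only in vehicle replicate 2. Of the knockout-missing loops, 271 of 491 (55.2%, 50.7 to 59.7) were called after progesterone, against 90.0% (89.4 to 90.7) of the 8360 loops of both vehicle lists that the knockout did have. These 271 loops, called in all 3 wild-type lists and not in the knockout, were 3.47% (3.08 to 3.91) of the 7799 loops common to the wild-type lists. The same count for vehicle replicate 2 as the odd one out was 240 of 7876 (3.05%, 2.68 to 3.45), and for replicate 3 it was 2172 of 9808 (22.1%). A further 6888 knockout loops (31.6% of the list) were in none of the wild-type lists.

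Knockout-only loops were mostly short, with a tail of very long ones. Their median length was 125 kb (quartiles 60 and 325), against 190 kb for knockout loops in both vehicle lists and 170 kb for the baseline of replicate 2 loops not in replicate 3. Of the knockout-only loops 41.6% were under 100 kb, against 26.5% of the loops in all 3 lists and 33.9% of the baseline. Replicate 2 loops called in neither other list had a median of 260 kb, and 23.6% were under 100 kb. Knockout-missing loops were longer, with a median of 280 kb (quartiles 160 and 540) and only 12.2% under 100 kb. The share of knockout loops that were knockout-only was 43.7% (42.2 to 45.1) up to 60 kb, 29.0% (27.4 to 30.7) between 300 and 500 kb and 43.2% (40.3 to 46.1) over 1000 kb. The baseline had the same U shape, with 59.4%, 41.6% and 55.8% of replicate 2 loops not in replicate 3 in those bins. The knockout-missing share went from 2.63% (1.78 to 3.73) up to 60 kb to 11% (8.13 to 14.3) over 1000 kb.

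Anchor size, which is the bin at which the loop was called, moved with these classes. Of the knockout-only loops 55.4% had 5 kb anchors, 30.2% 10 kb and 14.4% 25 kb, against 74.7%, 20.3% and 5.04% for knockout loops in both vehicle lists. Of the knockout-missing loops 31.4% had 5 kb anchors and 31.2% had 25 kb anchors. Among loops of both vehicle lists, 2.43% (2.06 to 2.84) of those with 5 kb anchors were not in the knockout list, 9.59% (8.31 to 11) with 10 kb and 25.8% (22.3 to 29.5) with 25 kb. The order of lengths changed with anchor size. The median was 75 kb for knockout-only, 190 kb for knockout-missing and 150 kb for fully shared knockout loops at 5 kb anchors. It was 200, 280 and 320 kb at 10 kb anchors and 550, 450 and 500 kb at 25 kb anchors, where knockout-only loops were the longest. When loops with 10 kb anchors alone were matched in every list, the medians were 230 kb for knockout-only and 175 kb for knockout-missing loops.

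Most anchors of knockout-only loops lay within 25 kb of a vehicle anchor. How often an anchor lies so near another by chance was not tested. Both anchors of 53.0% (51.9 to 54.2) of the knockout-only loops lay within 25 kb of a vehicle anchor, 1 anchor did in 40%, and none in 6.97% (6.41 to 7.57), which is 530 loops. For vehicle replicate 2 loops called in neither other list, these shares were 68.1%, 28.1% and 3.75%. Their anchors were looked up in vehicle replicate 3 and the longer knockout list, so this comparison is uneven. Of the knockout-missing loops 68.8% (64.5 to 72.9) had both anchors near a knockout anchor and 3.26% (16 loops) had neither. Just outside the matching limit, 1637 knockout-only loops (21.5%) had a vehicle partner when 50 kb was added and 4205 (55.3%) when 100 kb was added, against 13.3% and 40.2% of the baseline. The knockout-only loops could find a partner in either vehicle list and the baseline loops only in replicate 3, so these shares are not like for like. For knockout-missing loops 158 (32.2%) gained a knockout partner at 50 kb and 276 (56.2%) at 100 kb.

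Knockout-only loops joined promoters to promoters at a higher share than the baseline. Start sites of protein-coding genes lay at both anchors of 1509 of 7331 knockout-only loops (20.6%, 19.7 to 21.5). The share was 14.3% (13.4 to 15.2) for knockout loops in 1 vehicle list and 6.21% (5.70 to 6.76) for those in both. The baseline of replicate 2 loops not in replicate 3 had 12% (11.2 to 12.7), and replicate 2 loops in neither other list had 10.4% (9.27 to 11.7). Whole lists had 13.3% in the knockout, 8.37% in vehicle replicate 2, 6.54% in vehicle replicate 3 and 7.69% after progesterone. Knockout-missing loops had 6.75% (4.66 to 9.40), close to the 5.23% (4.75 to 5.73) of vehicle loops found in the knockout. In 1490 of the 1509 loops the anchors held start sites of different genes. Chromosome 18 is left out of these start-site shares because the promoter table used here holds none on it.

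Knockout-only loops had a higher share than loops in all 3 lists and than the baseline in each of the 4 ranges of length and with 5 kb anchors. Among knockout-only loops over 500 kb 31.0% (28.4 to 33.7) had start sites at both anchors, against 3.63% (2.70 to 4.77) of loops in all 3 lists and 13.7% (11.9 to 15.5) of the baseline. For loops up to 100 kb the shares were 17.7% (16.4 to 19.1), 9.74% (8.58 to 11) and 13.2% (12 to 14.6), and knockout loops in 1 vehicle list had 17.4% (15.9 to 19.1), close to the knockout-only share. With 5 kb anchors they were 19.9% (18.6 to 21.1), 6.07% (5.48 to 6.69) and 12.1% (11 to 13.3). The part played by depth in the order of these lists was not tested.

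**Figure D1:**
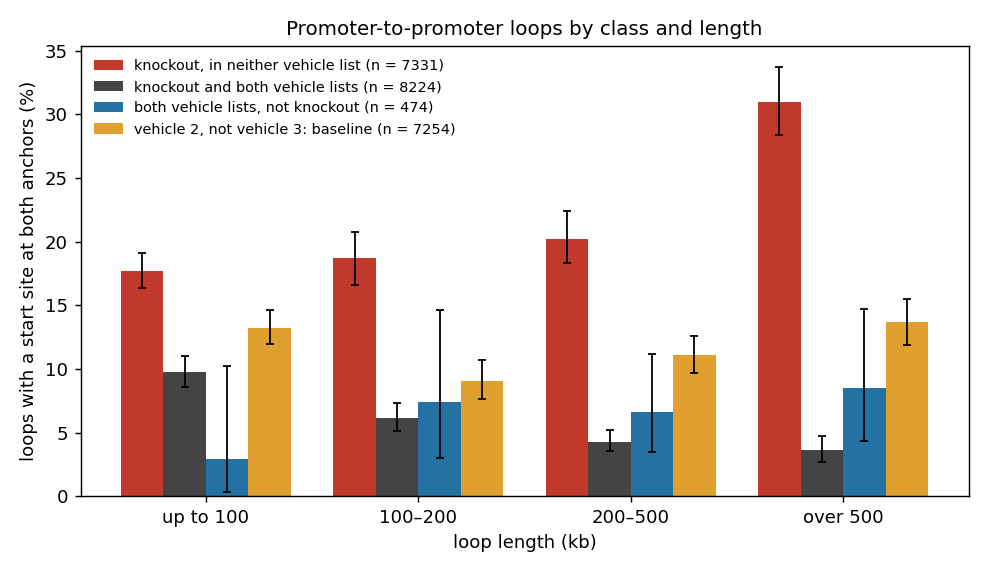
Share of loops with a protein-coding start site at both anchors (y axis, %) in 4 ranges of loop length (x axis, kb) for the same classes; bars start at 0, and whiskers are exact 95% intervals for counting error. The red bars of knockout-only loops are the highest in every range, from 17.7% up to 100 kb to 31.0% over 500 kb.

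Knockout-only anchors were spread widely, and a small number of bins held several. Of 11077 bins of 25 kb with a knockout-only anchor, 8127 held 1 such anchor and 71 held 5 or more, and 29 of those 71 held no gene start or end. The bin chr10:5800001-5825000 held Fbxo5, which encodes an inhibitor of the anaphase-promoting complex, and its neighbour Mtrf1l, a mitochondrial release factor. The knockout list had 9 loops there, all knockout-only, and the 3 wild-type lists had 0. Fbxo5 itself was at 8 of them, 525 to 23550 kb long, and their far ends held Zbtb2, Ginm1 and Ppil4, Tab2, Stxbp5, Rab32, Shprh and Rnf146. Within 10 kb of the ends of Fbxo5 each vehicle list had 1 loop and the knockout 9. Fbxo5 (chr10:5799158-5805465) lies beyond the end of Esr1 (chr10:4611989-5005633) on the same chromosome.

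Eml6, which encodes a microtubule-associated protein, had 7 knockout loops and none in any wild-type list. They ran 325 to 960 kb to both sides of chr11:30020001-30030000, among other ends to Pnpt1, to Mtif2 with Rps27a, to Psme4 and to Chac2. Counted over its whole gene body Eml6 had 3 loops in vehicle replicate 2, 1 in replicate 3 and 9 in the knockout, so the counts differ most at its promoter end. Zfp143, a zinc finger protein that binds promoters and loop anchors, had 0, 0 and 5 loops, and 1 after progesterone. Its 5 knockout loops, 45 to 360 kb long, ended at Akip1 with Denn2b, at Tmem41b, at Ipo7, at Wee1, a kinase that delays mitosis, and at a site with no gene end.

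Hjurp, the chaperone that loads the centromeric histone CENP-A, had 1, 1 and 8 loops and 2 after progesterone. Its anchors, between 88270001 and 88300000 on chromosome 1, were an end of the 4 longest knockout-only loops, to Tcea1 (83420 kb away), Pcmtd1 (81200 kb), Rrs1 (78750 kb) and Terf1 (72475 kb). Each vehicle list held 1 such loop, to Rb1cc1 (82060 kb) in replicate 2 and to Lypla1 (83450 kb) in replicate 3. So contacts of this kind were called in wild-type uterus too, in smaller number. In all, 71 knockout loops exceeded 5000 kb, 59 of them knockout-only, against 30 in vehicle replicate 2, 8 in replicate 3 and 15 after progesterone.

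The bin with the most knockout-only anchors, 11, was chr14:22675001-22700000 inside the body of Lrmda, with 12 loops in the knockout, 1 in each vehicle list and 2 after progesterone. On chromosome 17 the bins starting at 82425001 and 82500001, with no gene, held 8 knockout-only anchors each, and bins at 81650001 (in Slc8a1, a sodium-calcium exchanger), 81875001 and 82250001 held 6 each. The loops of these bins, which hold no gene start or end, were 35 to 1320 kb long. The bin of Plag1 and Chchd7 on chromosome 4 had 6 loops in the knockout list, all knockout-only, and none in the wild-type lists.

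The knockout-only share varied little over the autosomes, from 32.6% (29.0 to 36.5) on chromosome 19 to 38.5% (35.6 to 41.4) on chromosome 13. On chromosome X it was 45.3% (41.0 to 49.6), 245 of 541 loops, against 34.6% of autosomal loops. The baseline share on X was 49.5% (44.0 to 55.1), with autosomes between 42.6% on chromosome 11 and 48.9% on chromosome 12. X gave 2.48% of the knockout list, 1.98% of vehicle replicate 2, 1.97% of replicate 3 and 2.17% of the progesterone list. By anchor size the knockout-only share on X and on autosomes was 40.7% and 29.5% at 5 kb, 52.7% and 41.5% at 10 kb, and 45.8% and 50.2% at 25 kb, so the direction turned at 25 kb. The knockout-missing share ran from 2.96% (1.43 to 5.37) on chromosome 12 to 7.67% (5.34 to 10.6) on chromosome 13, with 6.71% (3.40 to 11.7) on X.

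**Figure D2:**
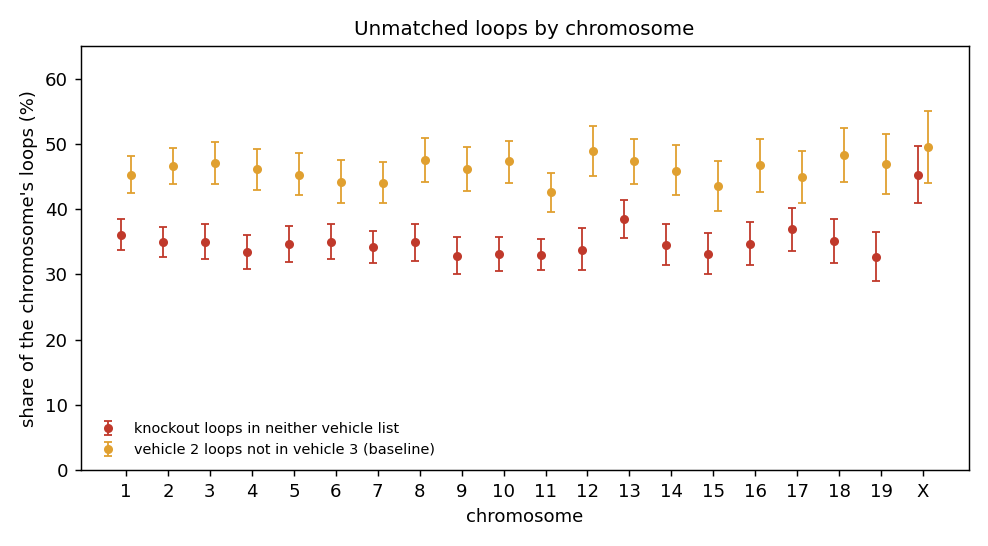
Share of each chromosome's loops that were unmatched (y axis, %): knockout loops in neither vehicle list (red) and vehicle replicate 2 loops not in replicate 3 (orange), with exact 95% intervals. The red point of X, 45.3%, lies above the red points of all autosomes, which end at 38.5%, while the interval of the orange point of X (44 to 55.1%) overlaps the orange points of most autosomes.

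On X some knockout-only loops lay at or near noncoding loci known from the inactive X chromosome. Within 100 kb of 4933407K13Rik, whose synonym Dxz4 names the boundary between the megadomains of the inactive X, vehicle replicate 2 had 2 loops, replicate 3 had 1, the progesterone list 2 and the knockout 7, of which 6 were knockout-only. They included loops from the anchor at 75670001, outside the gene, to Rab39b (100 kb), Vbp1 (160 kb) and Brcc3 (260 kb). On the gene body itself the counts were 0, 0, 0 and 1 in the same order. Firre, a noncoding gene that also forms long contacts on the inactive X, had 0, 0, 1 and 2 loops on its body in the same order, both knockout loops being knockout-only. The longer of its knockout loops joined it to Kdm6a over 32450 kb, and the progesterone list held a match. Xist, whose RNA coats the inactive X, had 3, 3, 3 and 4 loops on its body, 1 of them knockout-only. Within 100 kb the counts were 8, 5, 5 and 7 for Xist and 1, 1, 2 and 4 for Firre.

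Around Esr1 the knockout list held more unmatched loops than along the rest of chromosome 10. In the first 10 Mb, which hold Esr1, vehicle replicate 2 had 44 loops, replicate 3 had 25, the progesterone list 37 and the knockout 81. Of the knockout loops there 44 were knockout-only (54.3%, 42.9 to 65.4), against 31.7% (29.0 to 34.4) of 1172 on the rest of the chromosome. The baseline shares were 47.7% (32.5 to 63.3) there and 47.2% elsewhere. Without those loops that lie in the Fbxo5 bin the share was 36 of 73 (49.3%, 37.4 to 61.3). The window from 0 to 5 Mb had 57.1% and that from 5 to 10 Mb 52.2%, and 29 of the 445 windows of 5 Mb with 15 or more knockout loops reached 50%. The highest was 70.0% (21 of 30) at 25 to 30 Mb of chromosome 11, which holds most of Eml6. Loss of the receptor and the flanks of the altered allele cannot be told apart here.

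**Figure D3:**
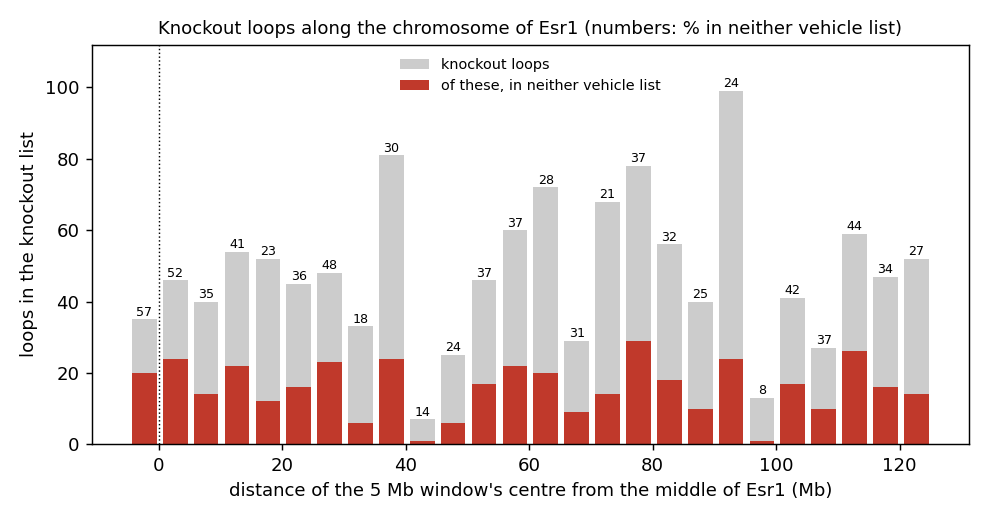
Knockout loops per 5 Mb window (grey bars) and those in neither vehicle list (red bars) along chromosome 10 by distance from the middle of Esr1 (x axis, Mb; dotted line at 0), with the percentage written above each bar. Both windows next to Esr1 exceed 50% (57.1% and 52.2%), and the other windows lie at or below 47.9%.

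Of 21627 protein-coding genes, 11235 had a start or end at an anchor of the 3 lists: 7427 in vehicle replicate 2, 5168 in vehicle replicate 3 and 9435 in the knockout. Knockout-only loops touched 5679 of the 11235 (50.5%), and the baseline of replicate 2 loops not in replicate 3 touched 5134 (45.7%). Knockout-missing loops touched 345 (3.07%). Read by gene rather than loop, 2625 genes (23.4%) were at anchors in the knockout and in neither vehicle list, against 843 in replicate 2 alone and 568 in replicate 3 alone. A vehicle anchor lay within 10 kb of the ends of 1156 of the 2625. Conversely 389 genes (3.46%) were at anchors of each vehicle list but of no knockout loop, against 615 not in replicate 2 and 2599 not in replicate 3. A knockout anchor lay within 10 kb of 302 of the 389.

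Among the 15 genes with the most knockout-only loops, several encode signalling and transcription factors. Gtdc1, a glycosyltransferase-like gene, had 4 and 1 loops in vehicle replicates 2 and 3 and 9 in the knockout, of which 7 were knockout-only, on chromosome 2 from 95 to 1515 kb. Ncoa2, which encodes the steroid receptor coactivator SRC-2, had 2, 2 and 8. Creb1, the cAMP-responsive transcription factor, had 2, 1 and 8, with knockout-only ends at Klf7, at Fzd5, a Wnt receptor, and at Idh1. Rictor, a core subunit of mTOR complex 2, had 2, 0 and 7, with ends at Osmr and Ptger4. Ripk2, the kinase of NOD receptors, had 4, 0 and 10. Hs6st1 (heparan sulfate sulfation) had 2, 1 and 8, and Cap1 (actin turnover) had 2, 1 and 8. Id2, an inhibitor of helix-loop-helix factors, had 7, 3 and 13. Hnrnph3 and its neighbour Pbld2 had 1, 0 and 7 each. The genes were chosen for these counts, which are therefore a description.

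The genes with no vehicle loop and the most knockout loops were Fbxo5 and Mtrf1l with 8, Eml6 with 7, and Chd8, Eef1akmt2 and Zfp143 with 5. Chd8, a chromatin remodeller of the CHD family, had 4 knockout-only loops, 60 to 155 kb long. 1 of them joined its start to Hnrnpc, and another joined its start to its own end, at an anchor shared with Supt16, a subunit of the histone chaperone FACT. Those with 4 included C2cd3 (centriole), Cap2 (actin), Aldh3a2 (fatty aldehyde oxidation), Dph6 (diphthamide synthesis) and, on X, Dnase1l1 and Eda2r. Ccdc9, 1810062G17Rik and 4921507P07Rik completed the 15. These 9 were the first by symbol of 51 genes tied at 4 loops. Cap2 had 3 loops over its gene body in replicate 2, 1 in replicate 3 and 12 in the knockout.

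Among knockout-missing loops the locus with the most was chr7:7275001-7300000, with Clcn4, a chloride-proton exchanger, and Vmn2r29, a pheromone receptor gene. Both genes had 5 loops in vehicle replicate 2, 3 in replicate 3, 2 after progesterone and 0 in the knockout. Replicates 2 and 3 shared its loops to Zfp787 and Zfp444 (1125 kb), to Zfp78 (925 kb) and to Zfp773 (150 kb), and those to Zfp787 with Zfp444 and to Zfp78 had a match after progesterone. No knockout anchor lay within 10 kb of the ends of either gene. The partner Zfp444 instead had 4, 5 and 10 loops, of which 6 were knockout-only, to Leng8, to Syt5, to Zfp628, to Zfp78 with Zfp28, to a site with no gene end and, over 17950 kb, to Zfp180 with Zfp112. Zfp787 had 4, 4 and 6. At this zinc finger cluster on chromosome 7, loops of both classes thus shared an anchor.

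The other genes described here had 2 knockout-missing loops each, except Commd3, which had 1. Tmem130 had 3, 2 and 3 loops in vehicle replicates 2 and 3 and the progesterone list and 0 in the knockout, and 2 knockout loops lay within 10 kb of its ends. Atg3, an enzyme of autophagosome formation, and its neighbour Slc35a5 had 3, 1 and 0 loops in replicate 2, replicate 3 and the knockout, with 0 after progesterone. Both of their knockout-missing loops were short, at 65 kb to Ccdc80 and 35 kb. Sumf1 had 2, 0 and 0 and Gpi1 3, 1 and 1. Tsen34 (tRNA splicing) had 4, 2 and 1. Snai2, a repressor in epithelial-mesenchymal transition, had 10, 6 and 10 loops and B9d1 (4, 4 and 3), Pip4k2a (3, 3 and 4), Tbl1xr1 (5, 3 and 7) and Commd3 (9, 3 and 6) also had knockout loops.

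Of genes at anchors in both vehicle lists and with 0 knockout loops, Meis1 had the most, with 4 loops in vehicle replicate 2, 5 in replicate 3 and 1 after progesterone. Meis1 encodes a homeobox cofactor of Hox proteins. Its vehicle loops ran 140 to 1550 kb, and none counted as knockout-missing. Within 10 kb of its ends the counts were 31, 17, 21 and 35, so the knockout had many loops beside this gene. Igfbp2, which encodes an insulin-like growth factor binding protein, had 2, 2, 1 and 0 loops, and the loop at the shared anchor of Igfbp2 and Igfbp5 to Xrcc5 (550 kb) was in all 3 wild-type lists but had no knockout match. Bmper, a BMP-binding protein, Col28a1, a collagen, and Ccdc39, a ciliary gene, had 2 in each vehicle replicate and 0 in the knockout. The same held for Arglu1, where the counts were 2 and 3, and for Atp5e, Boll, Exoc1, Mtrf1, Nt5m, Phyhipl and Slco1c1. Among the 15 genes so chosen, only Clcn4, Vmn2r29 and Exoc1 had no knockout anchor within 10 kb of the gene's ends.

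Of 37 early estrogen response genes at anchors, 24 (64.9%, 47.5 to 79.8) were at a knockout-only loop and 20 (54.1%) at the baseline, beside 50.5% and 45.7% of all genes. Myc, the growth-driving transcription factor, had 12 loops in vehicle replicate 2, 4 in replicate 3 and 16 in the knockout. Klf6 had 5, 6 and 10, Sox4 5, 3 and 9, and Atf3, a stress-induced factor, 0, 0 and 3. At knockout-missing loops 3 of 37 (8.11%) were found, Inhbb, Jun and Klf6, beside 3.07% of all genes. Jun, a subunit of AP-1, had 11, 5 and 10 loops. Of 14 late estrogen response genes 7 (50%, 23 to 77) were at knockout-only loops, close to the 50.5% of all genes, and 5 (35.7%) at baseline loops. Mcm5 (1, 1 and 3), Bub1 (0, 0 and 1), Ccna2 (2, 0 and 2) and Ccnb1 (0, 0 and 1) were among the 7.

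Esr1 had 1 loop in vehicle replicate 2, 2 in replicate 3, 0 after progesterone and 1 in the knockout, and 4, 5, 4 and 9 over its gene body. Pgr, the progesterone receptor gene, had 0, 1, 3 and 0 loops, and 5, 5, 5 and 4 over its body. Greb1, an ERα cofactor gene, had 0, 1, 1 and 0, and Ihh, the epithelial hedgehog ligand, 2, 2, 0 and 1. Igf1, the stromal growth factor, had 4, 2, 1 and 5, with 1 knockout-only loop of 175 kb. None of these had a knockout-missing loop. Of 25 genes of steroid receptors and their coregulators 13 (52%, 31.3 to 72.2) were at knockout-only loops, close to the 50.5% of all genes, with 11 (44%) at baseline loops, and 0 were at knockout-missing loops. Those at knockout-only loops were led by Ncoa2 and by Ncoa1, which encodes SRC-1 (0, 1, 1 and 4).

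Müllerian duct and Hox genes were at knockout-only loops in a lower share than at baseline loops. Müllerian duct genes lay above the share of all genes at baseline loops and close to it at knockout-only loops. Hox genes lay below the share of all genes at both kinds of loop. Of 31 Müllerian duct genes, 17 (54.8%, 36.0 to 72.7) were at knockout-only loops and 24 (77.4%) at baseline loops. The shares of all genes were 50.5% and 45.7%. Hoxd9 had 8 loops in vehicle replicate 2, 4 in replicate 3 and 10 in the knockout, and Hoxd10 had 3, 2 and 7. Of 33 Hox genes at anchors 8 (24.2%, 11.1 to 42.3) were at knockout-only loops, against 12 (36.4%) at baseline loops and 50.5% of all genes. Hoxc4, Hoxc5, Hoxc6 (which share 1 loop) and Hoxd11 were at knockout-missing loops, and the Hoxc loop to Zfp385a (300 kb) was also called after progesterone. Wnt5a, a Wnt ligand of the uterine stroma, had 4, 6, 9 and 1 loops in vehicle replicate 2, vehicle replicate 3, the progesterone list and the knockout. The wild-type Wnt5a loops ran 90 to 925 kb to both sides, and the knockout loop ran 940 kb. Its loop of 450 kb was knockout-missing. Over the Wnt5a gene body, however, the counts were 12, 6, 9 and 12, so the low knockout count holds for the ends of Wnt5a and not for the whole gene.

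Of 16 stromal markers at anchors 5 (31.2%, 11 to 58.7) were at knockout-only loops and 7 (43.8%) at baseline loops, beside 50.5% and 45.7% of all genes. Col1a2, a chain of type I collagen, Lum, a matrix proteoglycan, and Postn, a matricellular protein, were at knockout-missing loops (3 of 16, 18.8%, beside 3.07% of all genes). Col1a2 had 4, 3, 3 and 2 loops and Lum 2, 2, 3 and 1 in the same order of lists, and their knockout-missing loops, of 840 kb to Asb4 and of 190 kb, were called after progesterone too. Hoxa10 had 0, 4, 1 and 7 loops and Hoxa11 0, 4, 0 and 5. The knockout count was thus above both vehicle counts, which also differed from each other. Of the 16 stromal markers 12 were at anchors in replicate 2, 14 in replicate 3 and 16 in the knockout. In the same order the counts were 2, 3 and 6 of 7 epithelial markers and 3, 2 and 3 of 4 endothelial markers. For the 1 immune marker they were 1, 1 and 0. All genes at anchors numbered 7427, 5168 and 9435. These positions say nothing of how many cells of each type were present, and their part in the results was not tested.

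Of 48 matrix protease and inhibitor genes 5 (10.4%) were at knockout-missing loops, beside 3.07% of all genes. Mmp12, Mmp1b and Mmp3, which lie together on chromosome 9, had 1 loop in each vehicle list and 0 in the knockout, with loops of 230 and 140 kb that ended at the same site. They share 1 locus and are not separate cases, and the loop of 140 kb, at Mmp3, was called after progesterone. Adam22 had the same counts, and Adam5 had 4 knockout loops. At histone genes 7 of 54 (13%) were at knockout-missing loops, all by 1 loop of 1950 kb that joins the H1f5 and H1f2 ends of the large histone cluster on chromosome 13 and was called after progesterone. At knockout-only loops 32 of 54 histone genes (59.3%, 45 to 72.4) were found and at the baseline 33 (61.1%). The shares of all genes were 50.5% and 45.7%.

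Looping factors and replication genes had the highest shares at knockout-only loops among families of 12 or more genes. Part of each family was counted only through the knockout list, so the ranking describes that list and is no result about these families. Of 15 genes for CTCF, cohesin and other looping factors 12 (80.0%, 51.9 to 95.7) were there, against 7 (46.7%) at baseline loops and 50.5% of all genes. Zfp143 led them, followed by Mau2, a cohesin loader (0, 0 and 2), Smc1a, a cohesin subunit (1, 0 and 2), and Yy1, a promoter-bound looping factor (3, 1 and 4). Of 31 replication and mitosis genes 21 (67.7%, 48.6 to 83.3) were there, against 12 (38.7%) at baseline loops. They included Fbxo5, described above, Mad2l1 of the spindle checkpoint (3, 1 and 4), Mcm5 of the replicative helicase and Orc1 of the origin complex (0, 0 and 2). Of these 31 genes 30 were at anchors in the knockout, 18 in vehicle replicate 2 and 10 in replicate 3. At anchors in the knockout alone of the 3 lists were 6 of the 15 looping genes and 13 of the 31. The share of all genes was 23.4%. Such genes enter the 15 and the 31 only through the knockout list, so these shares are not independent of that list.

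Zinc finger genes were at knockout-only loops in 142 of 246 cases (57.7%, 51.3 to 64.0) and at baseline loops in 118 (48.0%). The shares of all genes were 50.5% and 45.7%. Zfp260 and Zfp566, neighbours on chromosome 7, had 1, 0 and 6 loops each. Zinc finger genes lay at both ends of 31 of 7603 knockout-only loops and of 23 of 7536 baseline loops. They did so in 14 of 8517 knockout loops found in both vehicle lists and in 2 of 491 knockout-missing loops. Ribosomal protein genes, here with mitochondrial ones, were at knockout-only loops in 74 of 130 cases (56.9%, 48.0 to 65.6) and at baseline loops in 56 (43.1%). The interval at knockout-only loops includes the 50.5% of all genes. At anchors in the knockout alone of the 3 lists were 31 of the 130, beside 23.4% of all genes. Mrpl32 (2, 0 and 4), Mrpl38 (2, 1 and 6) and Mrpl50 (1, 1 and 5) had the most.

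Cell-surface and sensory receptor families had low shares. Of 31 protocadherin genes 3 (9.68%, 2.04 to 25.8) and of 35 olfactory receptor genes 5 (14.3%, 4.81 to 30.3) were there, with 7 (22.6%) and 13 (37.1%) at the baseline, beside 50.5% and 45.7% of all genes. Read by gene, 9 of the 31 protocadherins were at anchors in the knockout alone of the 3 lists, and 23.4% of all genes were. Of 85 ion channel genes 29 (34.1%, 24.2 to 45.2) were there and 37 (43.5%) at the baseline. The share of a family read here depends on its number of loops and on neighbours that share an anchor, so families were counted and not tested.

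**Figure D4:**
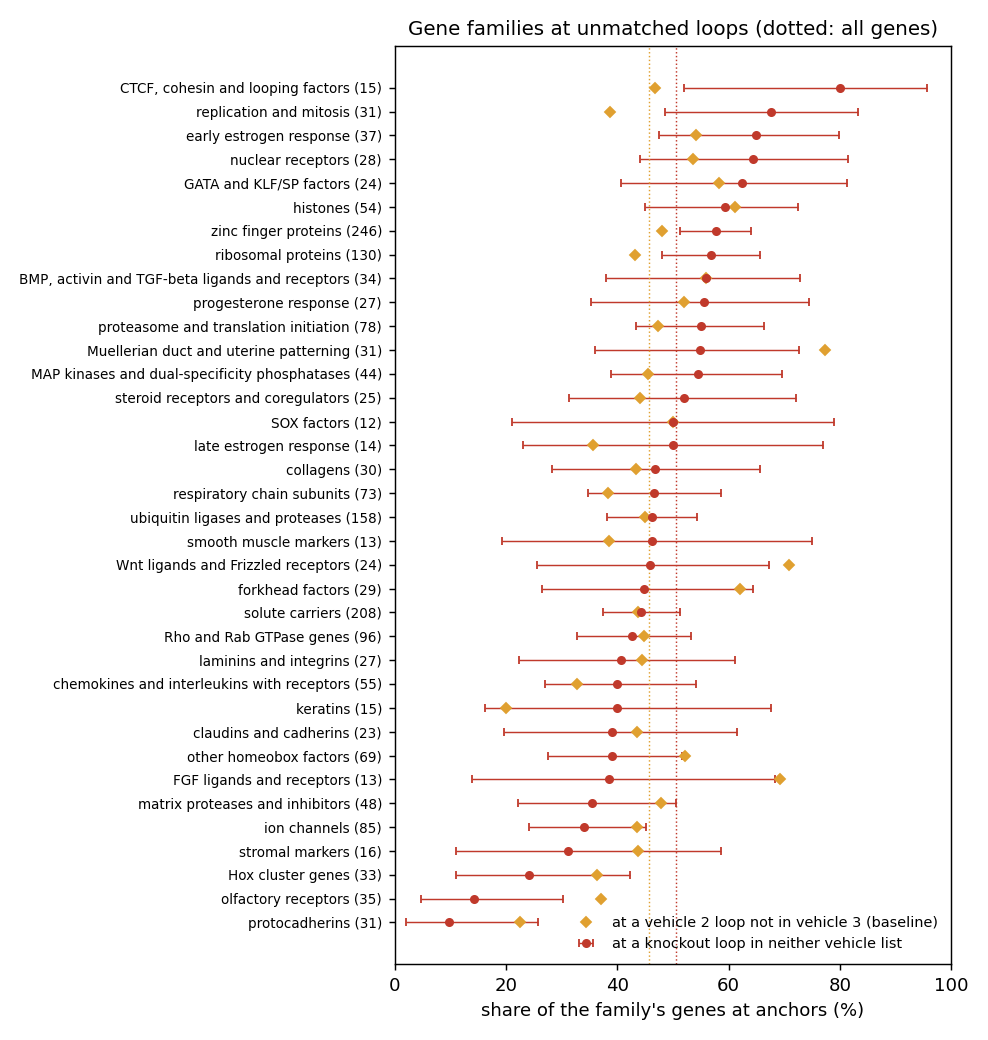
Share of each family's genes at anchors (x axis, %; the number of such genes stands in brackets) that were at a knockout-only loop (red, with exact 95% intervals for counting error) or at a vehicle replicate 2 loop not in replicate 3 (orange, the baseline), for families with 12 or more genes at anchors. Dotted lines give the shares of all genes, 50.5% and 45.7%. Looping factors (80.0%) and replication and mitosis genes (67.7%) lie to the right of both and protocadherins (9.68%) to the left. Genes at anchors in the knockout alone are counted, so the red shares are not independent of the knockout list.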

How the data were processed

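Hi-C libraries of frozen whole uterus were prepared by the Arima protocol, per the labels' protocols, and the submitters' processing notes name Juicer 1.5.6 and mm10. The authors deposited 1 list of loops per library: 6 columns of anchor positions with no score or count, in 3 anchor sizes of 5, 10 and 25 kb. How loops were called was not stated in the labels read here. Contact counts were not used, so depth and loop strength are unknown.

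Loops were matched, classed and measured with Python 3.11.15, numpy 2.4.6, pandas 2.3.3 and scipy 1.17.1, and drawn with matplotlib 3.10.9. The matching step was tested on simulated data. Knockout-missing loops are counted in the coordinates of vehicle replicate 2. A protein-coding gene of the RefSeq GRCm38.p6 table counted at an anchor that covered its start or end. Start sites came from the promoter table, with 21044 promoters of 17273 genes. Families were set by symbol pattern or hand-written list, so a pattern can include a gene of another function.

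The genes named are, per direction, the 15 with the most loops of the class, the 15 with no loop on the other side and the most on this one, up to 4 members of a family described, and Esr1, Pgr, Greb1, Igf1, Ihh, Fbxo5, Zfp444, Zfp787, Clcn4 and Vmn2r29. Genes named as the far end of a loop, at a bin or on X fall outside that rule and were picked after seeing their values. The members and lists were chosen with earlier results of these data known. CTCF motif orientation at anchors, which needs a genome, was not run. Alternatives varied the bases added, anchor size, vehicle lists and gene placement; those on start sites and X were added after seeing the data.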

Additional observations from a re-analysis of the deposited data

How the results depend on the processing

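Bases added to the anchors and the lists used set the counts, and direction cannot be tested with 1 knockout library. Knockout-only loops numbered 5966 to 11400 with 50 to 0 kb added, 3423 with 10 kb anchors only, and 8198 to 12717 with 1 vehicle replicate left out. No loops of a list overlapped at both anchors, so joining them changed nothing. Knockout-missing loops were 1409 with 0 kb and 808 with 10 kb added, 145 with 5 kb anchors only, and 819 to 3103 with 1 replicate left out. Genes at them, 345 in the report, were 796 with 0 kb, 545 with 10 kb, 44 with 5 kb anchors only, 610 by any part of the gene body, 681 with gene ends within 10 kb, 201 by start site alone, and 760 to 2324 with 1 replicate left out. With 10 kb anchors only the median length was 230 kb for knockout-only and 175 kb for knockout-missing loops. Other medians and the gene count at knockout-only loops stayed within 1.5 times of the value reported. The share of knockout-only loops with start sites at both anchors was 17.1% with 0 kb, 19.6% with 10 kb, 17.4% with 5 kb anchors only, 26.7% by gene starts and ends, and 18.1% to 20.1% with 1 replicate left out. It exceeded the baseline share in each of these that recomputed both (9.84%, 11.4%, 8.85% and 18.4%). On X the knockout-only share, 39.9% to 72.1% over the settings tried, exceeded the autosomal share in those settings, none of which used 25 kb anchors alone; among loops of that size it was lower (45.8% against 50.2%). No paired analysis was possible because the knockout and vehicle libraries share no replicate number. Unknown depth limits every count here.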
